A study of Mus musculus with 9 samples.

Results

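MyoD1 binding was mapped in C2C12, a mouse myoblast line, and the sites described here are those that were called in only part of the libraries when MyoD1 was at its own level. They were chosen from the peak lists themselves. Peaks of the 6 lists that overlapped or touched were merged into 58309 regions, and a region was kept when 2 or 3 of the 3 lists with doxycycline (+dox) and exactly 1 of the 3 lists without it (no dox) had a peak there. This gave 2848 regions, 4.88% of all merged regions and 20.6% of the 13795 regions in 2 or 3 +dox lists. They are called 1-list sites below. The other +dox consensus regions had a peak in 0 (2479 regions), 2 (3044 regions) or 3 (5424 regions) no dox lists and are called 0-list, 2-list and 3-list sites. The calls chose the sites, so the calls and the peak heights are given as a description, with no test.

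All 6 libraries came from C2C12 cells whose own MyoD1 carries a 3xF-HaloTag and which hold a further dox-inducible 3xF-Halo-MyoD1 transgene. The knock-in line was 1 homozygous clone, B9. Cells went into differentiation medium at the same moment as dox was added or left out, and both groups were collected after 6 h, so no dox cells were also at the start of differentiation. CUT and RUN with the M2 anti-Flag antibody and pAG-MNase reads tagged MyoD1 from the locus and from the transgene alike. There were 3 biological replicates of each group, and 3 wild-type libraries were not analysed here, so no value has a background from untagged cells beside it. A peak list cannot tell fewer cells with a bound site from less protein on the site in each cell, and it holds no RNA with which the cell type could be checked.

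MyoD1 is a basic helix-loop-helix factor that binds DNA as a dimer with an E-protein. It recognises E-boxes, short palindromes of the form CANNTG, and prefers CAGCTG. In muscle precursors it binds many places beyond the muscle genes, often beside AP-1, Runx and Tead factors, and only part of these places respond in expression.

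Both libraries numbered 3 differed from the other 4 before any comparison. The lists held between 9389 and 53661 peaks, and +dox replicate 3 had the most. From the size of 1 alignment in CPM (coverage scaled to library size), the libraries held 2868000 to 8030000 alignments, again with +dox replicate 3 the deepest. The lowest total signal that was called was 354 in no dox replicate 3 and 336 in +dox replicate 3, against 837 to 904 in the others. Of the peaks of no dox replicate 3 and +dox replicate 3, 34.6% and 26.5% lay within 1 kb of a transcription start site, against 52.8% to 62.3% in the other lists. Heights and ratios are therefore given library by library, and the differences between classes with and without both libraries. The other shares are also given for the 2043 sites that no dox replicate 1 or 2 had called, measured in +dox replicates 1 and 2. Both libraries numbered 3 still took part in choosing these 2043 sites.

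The sequences of 6 of the 1-list sites are shown on the plus strand of the mouse build GRCm38 (mm10). Each run spans 100 bases on either side of the middle of the highest-ranking +dox maximum, and in all 6 that maximum was in +dox replicate 3. The first 4 with CAGCTG were taken from the 10 sites that ranked highest in all 3 +dox lists, and the 2 without it were the next by the same order and by the gene lists. Capitals mark CAGCTG and the AP-1 motif TGANTCA. Sites in an untranslated region were passed over. Each site is named by its nearest protein-coding start site.

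Rpl3 site, chr15:80054076-80054276: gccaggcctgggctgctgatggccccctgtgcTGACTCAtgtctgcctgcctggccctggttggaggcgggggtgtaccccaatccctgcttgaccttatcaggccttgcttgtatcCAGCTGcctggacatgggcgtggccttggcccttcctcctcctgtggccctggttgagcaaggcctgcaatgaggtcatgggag
Cdh1 site, chr8:106619526-106619726: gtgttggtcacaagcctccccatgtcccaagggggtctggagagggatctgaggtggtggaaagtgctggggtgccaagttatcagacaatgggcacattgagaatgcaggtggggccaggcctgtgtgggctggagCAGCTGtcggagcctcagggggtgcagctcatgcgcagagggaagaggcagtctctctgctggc
Ngef site, chr1:87486526-87486726: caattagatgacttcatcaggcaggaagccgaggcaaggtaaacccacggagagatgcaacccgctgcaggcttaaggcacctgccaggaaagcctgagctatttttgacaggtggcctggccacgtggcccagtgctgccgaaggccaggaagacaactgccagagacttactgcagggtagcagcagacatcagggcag
Cass4 site, chr2:172411126-172411326: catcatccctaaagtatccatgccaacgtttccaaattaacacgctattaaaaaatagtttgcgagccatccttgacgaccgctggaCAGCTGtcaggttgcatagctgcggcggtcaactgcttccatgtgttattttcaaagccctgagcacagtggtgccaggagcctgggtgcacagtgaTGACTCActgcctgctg
Cfap20 site, chr8:95401226-95401426: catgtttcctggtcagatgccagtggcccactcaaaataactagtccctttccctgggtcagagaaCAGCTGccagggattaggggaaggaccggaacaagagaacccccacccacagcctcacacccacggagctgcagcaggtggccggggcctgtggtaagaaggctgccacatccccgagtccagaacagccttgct
Eya2 site, chr2:165559726-165559926: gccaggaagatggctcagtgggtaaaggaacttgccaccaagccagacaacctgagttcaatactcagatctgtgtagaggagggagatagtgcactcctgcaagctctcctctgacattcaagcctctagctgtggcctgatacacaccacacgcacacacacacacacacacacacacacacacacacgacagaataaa

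The sites by Rpl3 and Cass4 held CAGCTG and an AP-1 motif within the same window, and those by Cdh1 and Cfap20 held CAGCTG without one. The window by Ngef had no CAGCTG but 4 other CANNTG E-boxes. The window by Eya2 held 0 E-boxes of any kind. Among the 2848 sites, 150 (5.27%) held both motifs, 1755 (61.6%) held neither CAGCTG nor TGANTCA, and 950 (33.4%) held no E-box of any kind. Of all merged regions, 4.63%, 61.6% and 25.2% did so, so the first 2 shares were near those of any region. No E-box was found at 32.2% of 0-list, 33.0% of 2-list and 21.7% of 3-list sites.

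The no dox list that had the peak was most often replicate 2. It held 1548 of the sites (54.4%, 95% Wilson interval 52.5% to 56.2%), no dox replicate 3 held 805 (28.3%, 26.6% to 29.9%), and no dox replicate 1 held 495 (17.4%, 16.0% to 18.8%). These intervals cover counting error only. The 3 lists had 9389 to 13877 peaks, and the 1-list sites made up 5.27%, 11.2% and 6.01% of the peaks of no dox replicates 1, 2 and 3. With dox, replicate 3 called 2781 of the sites (97.6%), replicate 2 called 2178 (76.5%) and replicate 1 called 2012 (70.6%). A peak in all 3 +dox lists was found at 1275 sites (44.8%), against 634 of the 0-list sites (25.6%), 2105 of the 2-list sites (69.2%) and 4838 of the 3-list sites (89.2%). The commonest pattern was no dox replicate 2 with all 3 +dox lists, at 803 sites. Only 67 sites (16, 46 and 5 by no dox list) were without a peak in +dox replicate 3.

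**Figure D1:**
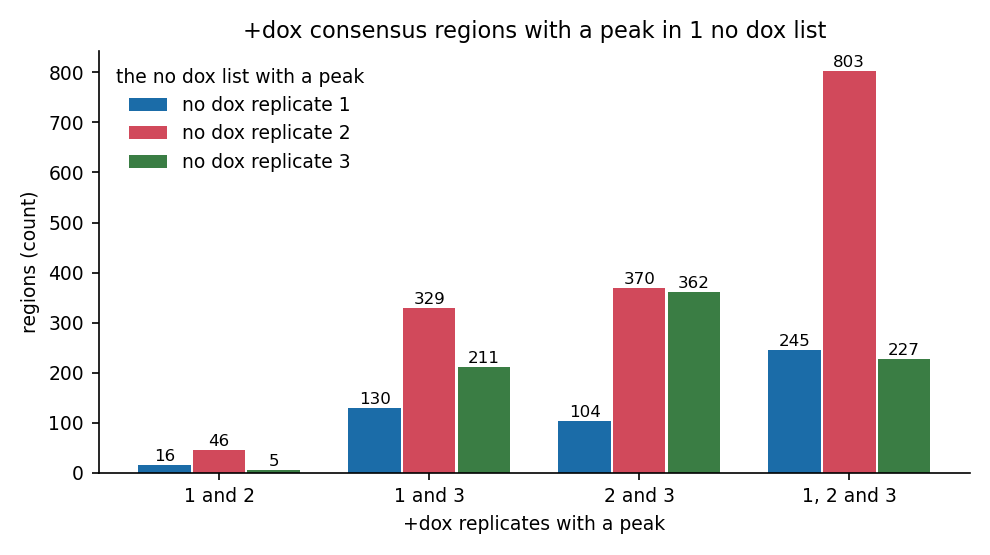
Number of regions (vertical axis, count) by which +dox replicates had a peak (horizontal axis) and which no dox replicate had one (colour). The bar for no dox replicate 2 with all 3 +dox lists stands highest at 803, and the 3 bars without +dox replicate 3 reach 46 at most.

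By the rule the other 2 no dox lists had no peak at a site, and their nearest peak was usually far off. From a site called by no dox replicate 1, the nearest peak of no dox replicate 2 was a median of 27750 bp away and that of replicate 3 was 26450 bp away. For sites called by no dox replicate 2 these medians were 39750 bp (replicate 1) and 27375 bp (replicate 3), and for sites called by replicate 3 they were 29600 bp (replicate 1) and 19600 bp (replicate 2). Between 2.13% and 7.07% of sites had such a peak within 1 kb, and between 10.6% and 23.1% within 5 kb. The lists hold called peaks and not coverage, so signal under the threshold in the other 2 no dox libraries could not be read.

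Without dox more than 1 in 2 of the sites were in the lower part of their list. The median maximum signal was 3.72 CPM in no dox replicate 1 (percentile 29.3 of that list), 3.61 CPM in replicate 2 (percentile 37.5) and 2.57 CPM in replicate 3 (percentile 38.6). In the upper 50% of the list stood 11.9%, 30.6% and 36.6% of the sites of no dox replicates 1, 2 and 3. In alignments the medians were 16, 16 and 12. Maxima were even numbers of alignments in 94.8% to 99.2% of peaks, so fewer separate DNA fragments than alignments may lie under them. The middle 50% of sites reached from 12 to 20 alignments in no dox replicates 1 and 2 and from 10 to 18 in replicate 3. With dox the medians were 6.28 CPM in replicate 1 (percentile 35.5), 5.00 CPM in replicate 2 (percentile 31.9) and 2.74 CPM in replicate 3 (percentile 70.8), or 18, 18 and 22 alignments. The percentile in +dox replicate 3 was higher in a list that is about 4 times as long as the others. In the uppermost 10% of their list stood 0 of the sites in +dox replicate 1, 0.0459% in replicate 2 and 10.9% in replicate 3.

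Heights of the 1-list sites lay between those of the 0-list and the 2-list sites in all 3 +dox lists. In +dox replicate 1 the median percentile went from 29.7 (0-list) through 35.5 (1-list) and 52.8 (2-list) to 75.8 (3-list). In +dox replicate 2 it went from 25.7 through 31.9 and 46.9 to 76.6, and in replicate 3 from 60.2 through 70.8 and 81.1 to 93.4. Without dox the order was the same, as 2-list sites had median percentiles of 43.0, 51.0 and 47.9 in no dox replicates 1 to 3. These heights come from the same peaks that put a site in its class. The plot of height percentiles shows how far the classes overlap: in each list the interval of the middle 50% of 1-list sites crossed that of the 2-list sites.

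**Figure D2:**
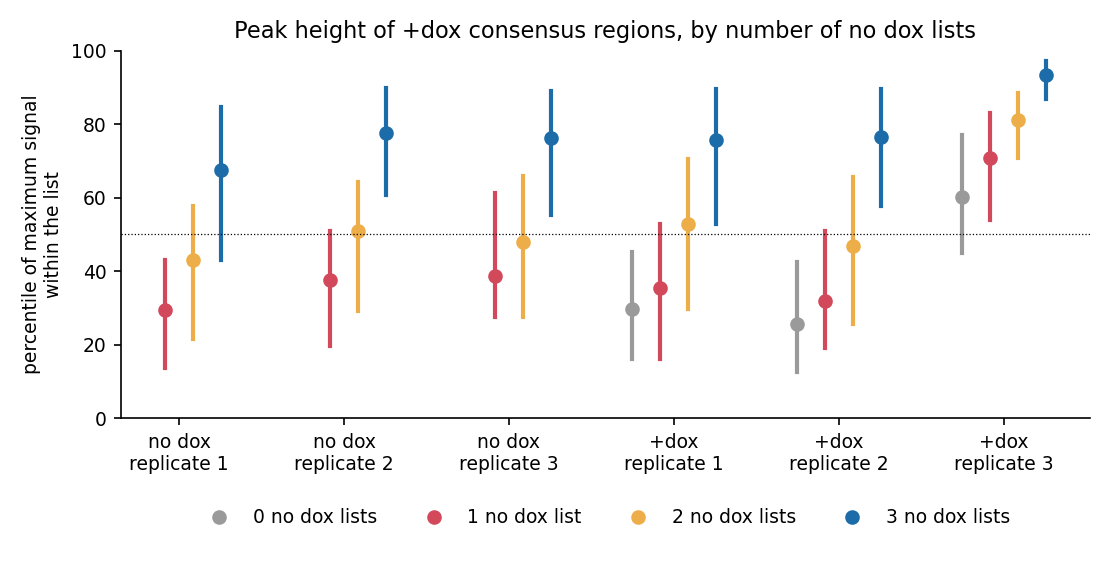
Percentile of maximum signal within each list (vertical axis, 0 to 100) for +dox consensus regions with a peak in 0, 1, 2 or 3 no dox lists (colours). Points are medians and bars the middle 50% of regions, and the 1-list sites have medians of 29.3 to 38.6 without dox, under the dotted line at 50 in every list but +dox replicate 3.

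How close a site was to the calling limit differed between lists. Total signal was a median of 1.22 times the lowest called total in no dox replicate 1, 1.40 times in replicate 2 and 3.88 times in replicate 3. Within 1.5 times of that floor lay 79.6%, 58.9% and 0.497% of the sites. With dox, the medians were 1.69, 1.48 and 3.41 times the floor, and 37.9%, 50.9% and 9.89% lay within 1.5 times. So, by this measure, sites near the floor were those called by no dox replicates 1 and 2. In no dox replicate 3 few peaks of any class lay that close. The shares were 0.212% at 2-list sites, 0.0922% at 3-list sites and 1.68% at regions outside the +dox consensus. Its 1-list sites had a median total of 1371, under the 1521 of its full list. Their peaks had a median width of 1050 bp, against 700 and 750 bp in no dox replicates 1 and 2. Of the 805 sites called by no dox replicate 3, 688 (85.5%) had a total signal over the higher floor of no dox replicates 1 and 2. Just outside the set, the 4019 regions with a peak in 1 +dox and 1 no dox list had median maxima of 2.79, 2.71 and 2.57 CPM in no dox replicates 1 to 3 and 4.18, 2.78 and 2.24 CPM in +dox replicates 1 to 3.

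At the same site the maximum was higher in +dox replicates 1 and 2 than in the no dox list that called it. Against no dox replicate 1 the median ratio was 1.83 in +dox replicate 1 (391 sites) and 1.43 in replicate 2 (365 sites). Against no dox replicate 2 it was 1.93 (1178 sites) and 1.44 (1219 sites), and against no dox replicate 3 it was 1.95 (443 sites) and 1.73 (594 sites). In +dox replicate 3 the ratio was 0.714 against no dox replicate 1 (479 sites), 0.735 against replicate 2 (1502 sites) and 1.55 against replicate 3 (800 sites). The direction therefore depended on which libraries were set against each other, and a CPM scale with no spike-in carries no absolute level. At 3-list sites all 9 median ratios were above 1, from 1.06 to 3.33. Each was higher than the 1-list ratio for the same 2 libraries. Over all peaks of a list the median maximum was 8.37, 7.23 and 1.49 CPM in +dox replicates 1 to 3. In no dox replicates 1 to 3 it was 5.12, 4.52 and 3.00 CPM. Higher maxima in +dox replicates 1 and 2 were thus not particular to the 1-list sites.

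The maxima of the 2 treatments were mostly close together, and less so for sites of no dox replicate 3. For sites called by no dox replicates 1 and 2 the middle of the no dox maximum was a median of 50 to 75 bp from that of a +dox list, and 77.1% to 84.9% were within 200 bp. For sites called by no dox replicate 3 the medians were 125 to 150 bp, with 60.9% to 67.8% within 200 bp. Between pairs of +dox lists the medians at these sites were 50 to 75 bp. The merged regions had a median width of 1200 bp, against 950 bp for 0-list, 1350 bp for 2-list and 1750 bp for 3-list sites.

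The most common place of a site was a promoter, here a maximum no more than 1 kb from any start of an annotated transcript. Taking each site at its highest-ranking +dox maximum, 1701 of 2848 (59.7%, 57.9% to 61.5%) were promoter sites, and 960 (33.7%) lay within 100 bp of a start. Of all merged regions, 27.1% and 11.1% did so. Percentiles ran higher in +dox replicate 3 than in the other +dox lists. The highest-ranking maximum therefore leans towards that list, here and in the motif shares below. Measured in +dox replicates 1 and 2, 1446 of the 2043 sites called by no dox replicate 1 or 2 (70.8%) were promoter sites. Of the other 1147 sites, 583 lay in introns, 444 between genes, 69 on coding exons, 29 on non-coding exons and 22 on untranslated regions. The median distance to a start site was 303 bp, against 5088 bp for all merged regions. By number of no dox lists it was 634 bp for 0-list, 206.5 bp for 2-list and 873.5 bp for 3-list sites. The share of +dox consensus regions that were 1-list sites lay between 17.2% on chromosome 8 and 26.8% on X, and the mitochondrial genome had 0 of 1.

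Promoter shares measured within each +dox list were higher than at 0-list sites and lower than at 2-list sites. In +dox replicates 1, 2 and 3 the share was 68.9%, 59.3% and 59.0% at 1-list sites, 63.1%, 49.3% and 51.8% at 0-list sites and 71.2%, 63.9% and 63.0% at 2-list sites. All 3 lists differed in the same direction, by a mean of 7.71 percentage points from the 0-list sites (SD 2.12, n = 3 lists) and of -3.63 points from the 2-list sites (SD 1.20, n = 3 lists). With an exact sign-flip test (two-sided, n = 3 lists) p was 0.25 for either difference, the smallest it can give, and the adjusted p was 0.292 over 7 tests. Each site has a peak in 2 or 3 of the 3 +dox lists, so the lists measure largely the same regions. Their shared direction, SD and p therefore do not measure spread between independent sets of sites. This also holds for the CAGCTG and AP-1 differences between classes below. The first difference was 1.61 points without no dox replicate 2 and 3.77 points without both libraries numbered 3. The second was turned round without no dox replicate 1, 2 or 3 (16.8, 10.8 and 1.52 points) and without both libraries numbered 3 (4.89 points). With a no dox list left out, the sites in both remaining lists include those that all 3 had called.

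The CAGCTG share was lower than at 0-list, 2-list and 3-list sites in all 3 +dox lists, and by the most against the 3-list sites. Within 100 bp of the maximum it was found at 25.9%, 30.7% and 31.4% of 1-list sites in +dox replicates 1, 2 and 3. The shares were 26.7%, 32.9% and 32.3% at 0-list sites, 28.6%, 32.1% and 32.5% at 2-list sites, and 45.6%, 47.1% and 49.0% at 3-list sites. The 1-list sites were thus 1.28 points under the 0-list sites (SD 0.809, n = 3 lists) and 1.71 points under the 2-list sites (SD 0.802, n = 3 lists), with exact sign-flip p = 0.25 and adjusted p = 0.292 for both. Without no dox replicate 2 the first difference turned to 2.69 points, and over whole peaks it was 0.803 points. The second turned to 1.99 points with lists of equal length and to 0.268 points with a common floor on total signal. Without no dox replicate 1, 2 or 3 it was -15.9, -15.5 and -12.7 points, as 3-list sites then enter the comparison. Without both libraries numbered 3 the differences were -1.81 and -13.8 points. The comparison with 3-list sites was not among the planned tests.

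**Figure D3:**
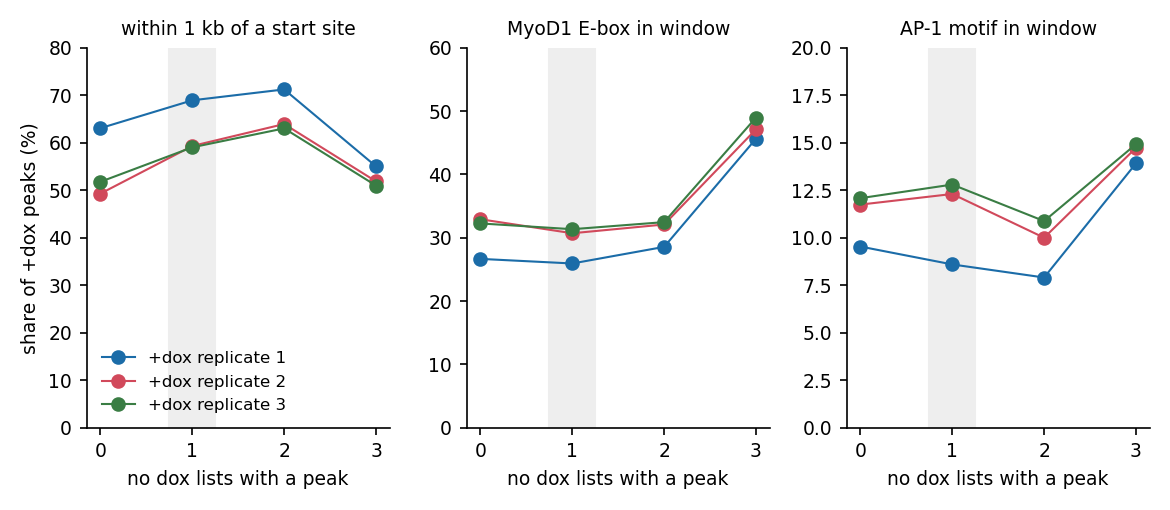
Share of +dox peaks (vertical axes, %) within 1 kb of a start site, with CAGCTG (MyoD1 E-box) and with TGANTCA (AP-1 motif) within 100 bp of the maximum, by number of no dox lists with a peak (horizontal axis). Each line is 1 +dox list, and at the shaded 1-list sites the E-box share was 25.9% to 31.4%, against 45.6% to 49.0% at 3 no dox lists.

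Among bins of 50 bp out to 500 bp, the nearest CAGCTG most often lay in the bin next to the maximum. Most sites with CAGCTG in the peak still had it farther off than 50 bp. Over whole peaks with 100 bp on each side, 46.0%, 55.1% and 62.6% of 1-list sites held it in +dox replicates 1 to 3. In +dox replicates 1, 2 and 3, the nearest CAGCTG lay within 50 bp of the middle of the maximum at 18.2%, 21.1% and 21.6% of 1-list sites, and between 100 and 150 bp at 5.52%, 6.24% and 6.47%. In the same lists the first of these shares was 18.9%, 21.5% and 22.7% at 0-list sites and 31.2%, 32.6% and 33.0% at 3-list sites. Taken at the highest-ranking +dox maximum, 882 of the 1-list sites (31.0%, 29.3% to 32.7%) held CAGCTG within 100 bp of it, against 30.2% of all merged regions. In windows of the same length moved by 10 kb the share was 9.97% for the 1-list sites and 10.2% for all merged regions. Measured in +dox replicates 1 and 2, CAGCTG was at 26.2% of the 2043 sites called by no dox replicate 1 or 2 and at 10.1% of their moved windows.

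**Figure D4:**
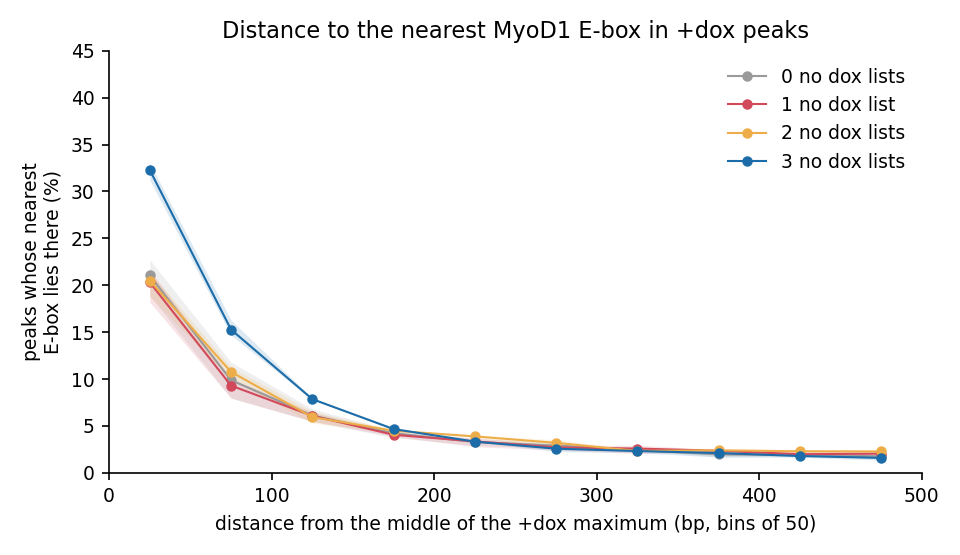
Share of +dox peaks (vertical axis, %) whose nearest CAGCTG lies in each bin of 50 bp from the middle of the maximum (horizontal axis, bp). Points are means over the 3 +dox lists and bands their range, and the curve of the 1-list sites (18.2% to 21.6% in the first bin) lies on those of the 0-list and 2-list sites, under that of the 3-list sites (31.2% to 33.0%).

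The motif shares differed more between promoters and other places than between 0-list, 1-list and 2-list sites. Of the promoter sites 18.3% held CAGCTG (312 of 1701) and of the other sites 49.7% (570 of 1147). The AP-1 motif was at 4.29% of promoter sites and at 25.1% of the others. Within distal +dox peaks the CAGCTG share at 1-list sites was 45.3%, 48.1% and 49.9% in +dox replicates 1 to 3, against 45.9%, 47.1% and 46.9% at 0-list sites, 47.4%, 48.1% and 50.1% at 2-list sites and 60.3%, 60.2% and 62.1% at 3-list sites. It was thus above the 0-list share in +dox replicates 2 and 3 and below it in replicate 1. Within promoter peaks it was 17.2%, 18.8% and 18.5%, against 15.4%, 18.4% and 18.7% at 0-list sites, 20.9%, 23.1% and 22.1% at 2-list sites and 33.7%, 34.9% and 36.4% at 3-list sites.

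TGANTCA, the motif of Fos and Jun dimers, was found in 8.60%, 12.3% and 12.8% of 1-list peaks in +dox replicates 1, 2 and 3. The shares were 9.54%, 11.7% and 12.1% at 0-list sites, 7.91%, 10% and 10.9% at 2-list sites and 13.9%, 14.7% and 14.9% at 3-list sites. Taken at the highest-ranking +dox maximum it was at 12.7% of 1-list sites. That was near the 12.8% of all merged regions and above the 4.95% of moved windows. Measured in +dox replicates 1 and 2, it was at 8.66% of the 2043 sites and at 4.89% of their moved windows. The 1-list sites differed by 0.111 points from the 0-list sites (SD 0.915, n = 3 lists, exact sign-flip p = 1) and by 1.64 points from the 2-list sites (SD 0.843, n = 3 lists, exact sign-flip p = 0.25, adjusted p = 0.292). Within distal peaks TGANTCA was at 21.1%, 24.5% and 25.2% of 1-list sites, above the 19.7%, 19.7% and 20.1% of 0-list sites in all 3 lists, and within promoter peaks it was at 2.96%, 3.95% and 4.20%, against 3.60%, 3.58% and 4.65%. These shares by place were not tested. The difference of 1.64 points was turned round without no dox replicate 1, 2 or 3 (-5.03, -3.89 and -1.50 points), and without both libraries numbered 3 the differences were -0.313 and -2.77 points.

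Other short motifs were counted on both strands in the same windows. GGGCGG, the GC box of Sp and Klf factors, was at 39.6% of 1-list sites, against 17.0% of all merged regions and 4.04% of moved windows. At 0-list, 2-list and 3-list sites it was at 37.1%, 44.9% and 37.8%, so a high share was not particular to the 1-list sites. CCGGAA, the core bound by ETS factors, was at 14.3%, against 6.33% of all merged regions and 2.07% of moved windows. Its shares at 0-list, 2-list and 3-list sites were 12.1%, 14.1% and 9.66%. CACGTG, the E-box of Myc and Usf factors, was at 6.39%, against 4.43% of all merged regions and 2.84% of moved windows. Its shares at 0-list, 2-list and 3-list sites were 5.28%, 5.95% and 5.14%. CAGGTG, an E-box that E-proteins and Zeb repressors bind, was at 17.6%, under the 21.4% of all merged regions and near the 16.4% of moved windows. The CCAAT box was at 21.9%, against 24.1% of moved windows, and the Tead core GGAATG at 11.6% against 9.69%. For 2 motifs the direction turned with the calling library. The Runx core TGTGGT was at 10.1% and 11.3% of the sites of no dox replicates 1 and 2, under the 17.4% and 16.8% of their moved windows, and at 20.4% of the sites of replicate 3, over 15.8%. Any CANNTG was at 60.8% and 62.7% of the sites of no dox replicates 1 and 2, under 68.5% and 67.7% of moved windows, and at 77.9% of those of replicate 3, over 67.7%. Measured in +dox replicates 1 and 2, GGGCGG was at 53.0%, CCGGAA at 17.2% and GGAATG at 7.88% of the 2043 sites. In their moved windows the shares were 3.23%, 2.15% and 9.15%, so GGAATG was then the less frequent at the sites. Windows of the 1-list sites had a median GC content of 60.7%, against 54.2% for all merged regions. For 0-list, 2-list and 3-list sites it was 59.7%, 61.7% and 59.2%.

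The set was made of distinct kinds of site according to the no dox list that called it. Sites called by no dox replicates 1 and 2 were mostly promoters rich in GC, and those called by no dox replicate 3 were mostly away from promoters. Measured in the +dox lists, the promoter share was 73.8% ± 3.61 (SD, n = 3 lists) for sites of no dox replicate 1, 71.0% ± 4.73 for replicate 2 and 36.2% ± 4.24 for replicate 3. The intron share was 24.5% ± 4.56, 30.0% ± 3.85 and 43.1% ± 3.33. Median GC content was 65.2%, 64.5% and 56.6%, and GGGCGG was at 52.9%, 51.7% and 24.3% of sites. CCGGAA was at 18.7%, 17.2% and 7.48%. For each of these measures the 3 values of no dox replicate 3 did not overlap those of replicates 1 and 2. The 3 values of a group come from largely the same sites, called by 1 no dox library. Their SD and the lack of overlap therefore do not measure spread between independent sets of sites, here or for the motifs below.

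Motifs differed the other way. CAGCTG was at 27.3% ± 0.366 (SD, n = 3 lists) of sites called by no dox replicate 1, 25.9% ± 2.91 of those of replicate 2 and 37.9% ± 3.90 of those of replicate 3. TGANTCA was at 7.97% ± 1.81, 8.62% ± 1.76 and 19.0% ± 2.69. Within a place the E-box share was closer: of promoter sites 17.6%, 17.3% and 23.2% held CAGCTG, and of the other sites 52.9%, 47.8% and 50.6%. The same 3 +dox lists gave all these values for different sites, and the sort into groups follows the no dox library, so biological replicate and library quality cannot be told apart here. In their full lists the no dox libraries differed likewise, with promoter shares of 56.6%, 52.8% and 34.6%.

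**Figure D5:**
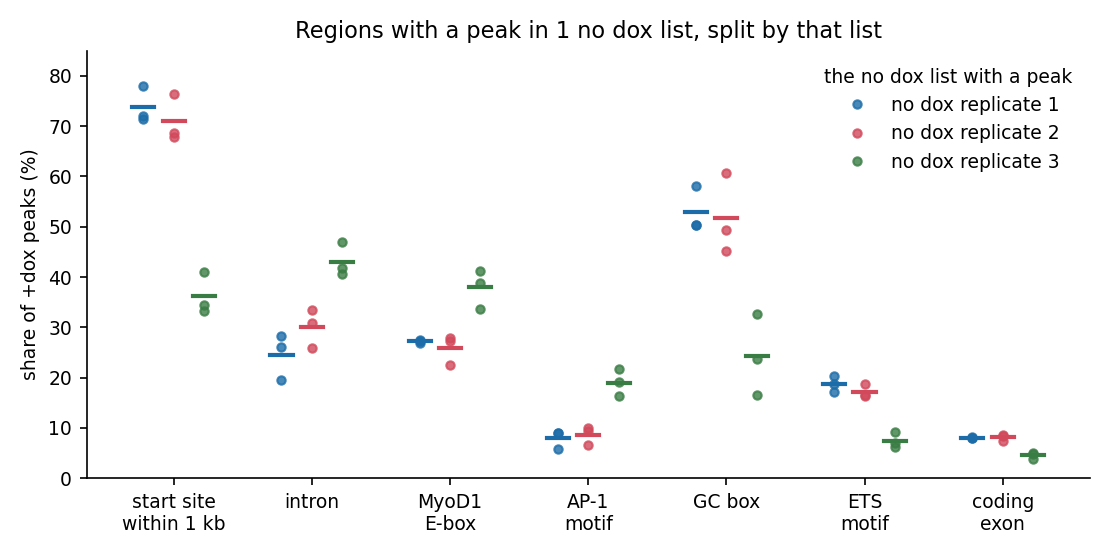
Share of +dox peaks (vertical axis, %) by feature (horizontal axis) at 1-list sites, split by the no dox replicate that had the peak (colour). Points are the 3 +dox lists and bars their mean, with intron and coding exon counted whether or not a start site was near, and sites of no dox replicate 3 stand apart with a promoter share of 36.2% against 73.8% and 71.0%.

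At the sites themselves, and averaged over the +dox lists, CAGCTG was less often close to the no dox maximum than to the +dox maximum. Its share was 26.7% at the no dox maxima of replicate 1 and 27.3% at the +dox maxima of the same sites, 23.8% and 25.9% for replicate 2, and 30.4% and 37.9% for replicate 3. For sites of no dox replicate 2 the direction was the other in +dox replicate 1, where the share was 22.6%. The mean difference was -3.39 points (SD 3.63, n = 3 no dox libraries, exact sign-flip p = 0.25, adjusted p = 0.292), and no dox replicate 3 gave most of it with -7.49 points. Without that library the difference was -1.79 points. With windows of 250 bp on each side the difference was 0.179 points, and over whole peaks it was 3.30 points.

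Of 21842 protein-coding genes, 2533 (11.6%) were nearest to at least 1 of the sites, and these were 29.4% of the 8625 genes nearest to any +dox consensus region. A nearest gene is a name for a place and not a target. Most genes had 1 site (2268 genes), 225 had 2 and 40 had 3 or more. Bcor, which encodes a corepressor that works with Bcl6, had 6 sites among 19 +dox consensus regions, and Wnt7b, a Wnt ligand, had 5 among 13. Myc, Bcr, Klf14, Ssbp3 and Zmiz1 had 4 each. Of the 580 genes in 21 lists of muscle and signalling genes, 137 (23.6%) had a site, or 33.7% of the 407 with any +dox consensus region. Since listed genes more often had any +dox region, the second share is the one to set against 29.4%, and it is given for each list below. No list was tested. The sites described for a list were picked for a high rank with dox. Their heights with dox are therefore high by choice and not typical of the list.

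Of the 20 myogenic regulators, 15 had some +dox consensus region and 4 (26.7% of these) had a 1-list site. They were Mef2d and Mef2b, partners of MyoD1 at muscle genes, Eya2, a transcriptional coactivator, and Lbx1, a homeobox factor of migrating muscle precursors. The site 1014 bp upstream of Lbx1 had 5.12 CPM in no dox replicate 1 and 15.0, 6.12 and 3.24 CPM in +dox replicates 1 to 3. A site in an intron of Mef2d, 3104 bp past the start, had 3.61 CPM in no dox replicate 2 and 6.12 and 2.99 CPM in +dox replicates 2 and 3. The Eya2 site shown above had 2.57 CPM in no dox replicate 3 and 5.00 and 4.98 CPM in +dox replicates 2 and 3. None of the genes Myod1, Myog, Mef2a, Id3, Mymk, Mymx, Cdh15, Cadm4, Itga3 and Mcam had a 1-list site within 10 kb. Of their +dox consensus regions, Myod1 and Id3 had 2 and 3, which all 3 no dox lists had called, and Cadm4 had 2, which 2 no dox lists had called. Myog had none in 2 or 3 +dox lists.

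E-box factors that pair with MyoD1 or oppose it made up the next list. Of 20 E-protein, Id and repressor genes 18 had some +dox consensus region and 7 (38.9% of these) a 1-list site, among them Tcf3 and Tcf4, which encode E-protein partners, and Id3 and Id4, whose products hold E-proteins off DNA. The site at the Tcf3 promoter, 504 bp upstream, had 3.00 CPM in no dox replicate 3 and 6.28, 7.79 and 4.23 CPM in +dox replicates 1 to 3. The site at the Id4 promoter had 4.06 CPM in no dox replicate 2 and 9.07, 6.67 and 3.49 CPM with dox, and neither window held CAGCTG. The site named for Id3 lay farther than 10 kb from the gene.

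Adhesion and fusion genes were in 4 lists. A site was found at 13 of the 26 integrin and focal adhesion genes with any +dox consensus region (50%), at 6 of 13 such cadherin genes (46.2%), at 5 of 14 fusion genes (35.7%) and at 2 of 16 genes of immunoglobulin-type adhesion molecules (12.5%). The Cdh1 site, in an intron of this epithelial cadherin 16247 bp past its start, had 5.42 CPM in no dox replicate 2 and 24.4, 19.5 and 13.2 CPM in +dox replicates 1 to 3. An intronic site of Zyx, which encodes the focal adhesion protein zyxin, had 2.57 CPM in no dox replicate 3 and 7.23 and 12.7 CPM in +dox replicates 2 and 3. The Cdon gene, for a co-receptor that promotes myoblast differentiation, had 3 sites, and the one 16898 bp past its start had 10.7 CPM in no dox replicate 3 and 6.28 and 40.6 CPM in +dox replicates 1 and 3. Among fusion genes, an intronic site of Dysf, the dysferlin gene of membrane repair, had 4.71 CPM in no dox replicate 3 and 12.6, 6.67 and 5.48 CPM in +dox replicates 1 to 3.

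In the contractile and synaptic apparatus, again among genes with any +dox consensus region, sites were found at 8 of 28 sarcomere genes (28.6%), 6 of 21 excitation-contraction genes (28.6%), 6 of 15 neuromuscular junction genes (40%) and 6 of 12 dystrophin complex genes (50%). A site 10686 bp upstream of Lmod2, the leiomodin that builds thin filaments, had 5.87 CPM in no dox replicate 2 and 7.23 and 5.73 CPM in +dox replicates 2 and 3. An intronic site of Musk, the receptor kinase of the neuromuscular junction, held CAGCTG and an AP-1 motif and had 4.71 CPM in no dox replicate 3 and 6.28 and 11.2 CPM in +dox replicates 1 and 3. An intronic site of Chrnd, an acetylcholine receptor subunit, had 3.72 CPM in no dox replicate 1 and 10.5, 8.90 and 2.74 CPM with dox. The window 10818 bp upstream of Dag1, the dystroglycan gene, held 4 copies of CAGCTG.

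Signalling genes with a site, of those with any +dox consensus region, were 11 of 31 Wnt genes (35.5%), 9 of 34 TGF-beta and BMP genes (26.5%), 5 of 22 Notch genes (22.7%), 6 of 15 FGF genes (40%) and 4 of 11 IGF genes (36.4%). An intronic site of Wnt9a, a Wnt ligand, held 3 copies of CAGCTG and had 3.61 CPM in no dox replicate 2 and 24.4, 17.2 and 4.98 CPM in +dox replicates 1 to 3. Smad3 and Smad6, which carry and inhibit TGF-beta and BMP signals, had 3 sites each. The Smad3 site 81582 bp upstream had the highest no dox replicate 1 maximum of the set, 10.2 CPM (percentile 78.9), and 19.5, 10.6 and 4.73 CPM with dox. A site 40927 bp upstream of Igfbp2, which encodes an IGF-binding protein, had 14.1 CPM in no dox replicate 3 and 3.34 and 25.4 CPM in +dox replicates 2 and 3.

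On the same base, the remaining lists had sites at 4 of 15 AP-1 genes (26.7%), 6 of 20 Runx, Tead and Srf partner genes (30%), 6 of 26 chromatin cofactor genes (23.1%), 9 of 23 cell-cycle genes (39.1%), 11 of 28 collagen and matrix genes (39.3%) and 5 of 16 genes of muscle energy metabolism (31.2%). A site 137627 bp upstream of Runx1 was among the highest with dox and had 8.13 CPM in no dox replicate 2 and 10.5, 27.2 and 20.9 CPM in +dox replicates 1 to 3. A site 11903 bp upstream of Cdkn1a, the cell-cycle inhibitor that MyoD1 induces in differentiation, had 6.52 CPM in no dox replicate 1 and 9.07, 6.67 and 5.73 CPM with dox.

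The 10 sites with the highest mean percentile in all 3 +dox lists were named for Rpl3, Cdh1, Ngef, Cass4, Npm1, Cfap20, Vps8, Plekhg5, Cmc4 and Tspan33. For 9 of them no dox replicate 2 had the peak, and for Ngef it was replicate 1. The Rpl3 site, 26305 bp from the start of that ribosomal protein gene, led with 6.32 CPM in no dox replicate 2 and 32.8, 22.2 and 9.21 CPM in +dox replicates 1 to 3. The Plekhg5 site was the lowest of the 10 without dox at 3.16 CPM (percentile 29.1), with 18.1, 20.6 and 8.97 CPM with dox. The Vps8 promoter was the highest of the 10 without dox at 10.4 CPM (percentile 82.5), with 26.5, 17.2 and 6.72 CPM with dox. In 6 of the 10 windows CAGCTG was present.

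A few sites were near the top of their no dox list. In no dox replicate 2, 2 of 1548 sites stood above percentile 90, and in replicate 3, 9 of 805 did. In replicate 1, 0 of 495 sites did and the highest was at 78.9. The 2 of replicate 2 both lay on coding exons of Cdh23, a long cadherin gene, with nearest start sites of Vsir and Gm17455. The first, at chr10:60335801-60336500, had 257.9 CPM in no dox replicate 2 (percentile 99.9) and 8.37 and 1.99 CPM in +dox replicates 1 and 3. The second, at chr10:60386701-60387250, had 68.6 CPM and then 5.58 and 0.996 CPM in the same lists. In no dox replicate 2, 45 of the 50 peaks in Cdh23 were on coding exons, against 2 of 7 and 7 of 13 in no dox replicates 1 and 3 and 11 of 17, 2 of 9 and 4 of 32 in +dox replicates 1 to 3. Cdh23 held 2 more of the sites, both called by no dox replicate 3 and within 1 kb of a Vsir start site. The site at chr10:60346251-60348000 had 2.14 CPM in that list and 3.49, 3.89 and 3.49 CPM in +dox replicates 1 to 3, and the site at chr10:60348701-60349900 had 3.86 CPM and then 2.78 and 6.23 CPM in +dox replicates 2 and 3. The highest site of no dox replicate 3 lay 5872 bp upstream of Raph1 with 16.3 CPM (percentile 95.7), and 3.49, 3.89 and 18.2 CPM in +dox replicates 1 to 3. At the other end, the lowest no dox maxima were 1.40 CPM by 4933402J07Rik in replicate 1, 1.35 CPM at the Tor4a promoter in replicate 2 and 0.857 CPM at the Rcc2 promoter in replicate 3.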

How the data were processed

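The authors processed the CUT and RUN reads with nf-core/cutandrun 3.2.2 on mm10, scaled coverage to CPM, removed blacklisted regions and called peaks in each library with SEACR in relaxed mode. The submitters' processing notes also name deepTools. Each deposited list gives an interval, its total signal, its maximum signal in CPM (coverage scaled by library size) and the stretch of the maximum. No control library or numeric threshold is given in the sources used here. The step of 1 alignment was the largest value of which all maxima were whole multiples within 0.02, and whether it stands for reads or fragments is not given in the sources used here.

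From these lists the 6 sets of peaks were merged, and the peak of highest maximum per list stood for a region. Motifs were searched on both strands of GRCm38 within 100 bp of the middle of the maximum, and places and genes came from GENCODE M21. All shares compared between classes were measured within the same +dox lists and tested with exact two-sided sign-flip tests over 3 lists (8 sign patterns, smallest p 0.25), with Benjamini-Hochberg adjustment over 7 tests. No test could pass a level of 0.05. Labels share replicate numbers, but the calls of same-numbered libraries deviated together with correlations of -0.0326, 0.108 and 0.0629 over 58309 regions, and nothing in the labels ties a number across groups. Replicates are labelled biological.

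The sites, the gene lists and the tests were chosen with earlier results of these data known. Sites named are the 10 of highest mean percentile in all 3 +dox lists and those within 10 kb of 11 genes of the study. Also named are up to 3 per gene list, and the lowest and highest per no dox list. Those of a gene list were the ones with the highest mean percentile over the +dox lists that called them. Alternatives left out each library, gave all lists an equal length or a common floor, and changed the merging, the +dox lists required, the windows and the promoter distance. The merging and tests were checked on simulated lists. The versions were pandas 2.3.3, pysam 0.24.0, SciPy 1.17.1, NumPy 2.4.6 and Python 3.11.15.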

Additional observations from a re-analysis of the deposited data

How the results depend on the processing

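Of 124 values under 19 alternatives, 98 kept their direction or, for the number of sites, stayed within 1.5 times. The higher promoter share than at 0-list sites kept its direction in all 15 (1.61 to 10.9 points). Leaving out 1 library gave 1364 to 4227 sites, and differences of -2.82 to 2.69 (CAGCTG against 0-list), -15.9 to -0.509 (CAGCTG against 2-list), -2.01 to 0.630 (AP-1 against 0-list), -5.03 to 2.70 (AP-1 against 2-list), -5.51 to 16.8 (promoter against 2-list) and -4.38 to -1.79 points (no dox against +dox maxima). The number of sites was 2848, and it was 1364 without +dox replicate 3, 1169 with lists of equal length and 1275 with a peak in 3 of 3 +dox lists, where fewer peaks or a stricter rule enter by construction.

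With lists of equal length the CAGCTG difference to 2-list sites was 1.99 points, and with a common floor on total signal it was 0.268 points. With the same floor the AP-1 difference to 0-list sites was -1.58 points. That difference was also -0.301 with peaks reduced to their maximum, -0.0755 in 3 of 3 +dox lists, -0.368 with windows of 250 bp and -0.313 points without both libraries numbered 3. That last setting, chosen after seeing the data, gave 1931 sites and turned the AP-1 difference to 2-list sites to -2.77 and the promoter difference to 4.89 points. Over whole peaks the CAGCTG difference to 0-list sites was 0.803, and that between no dox and +dox maxima was 3.30 points, or 0.179 with windows of 250 bp. Apart from what each setting changes by construction, the cause was not tested. With the replicate block, which sets each no dox library against the +dox library of its number, the difference between maxima was -5.19 points (exact sign-flip p = 0.25) in place of -3.39.

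Medians of 12 to 22 alignments under a maximum limit what a missing call says, since signal under a list's threshold is not in these lists.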
